A study of Homo sapiens with 4 samples.

Results

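Cytosolic ribosomal proteins, the protein part of the 40S and 60S subunits of the ribosome, were followed in RCM‐1 human colorectal cancer cells exposed to methylthioacetic acid (MTA). A gene was taken as a member where its platform symbol was RPL or RPS with a number and an optional suffix, or RPLP0, RPLP1, RPLP2 or RPSA, and where a probe set of the array carried that symbol alone. Kinases of the RPS6K family, pseudogenes and the Y‐linked RPS4 copies were left out. This gave 60 genes of 19775 that were read by a probe set with 1 symbol, 21 named for the small and 39 named for the large subunit, with 121 probe sets. Of these genes, 58 were among the 10505 genes kept after the filter on dim probe sets. Of the 60 genes, 8 are paralogs with L or L1 at the end of the name, here called like genes, and 52 are the standard genes.

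RCM‐1 is a cell line from a well‐differentiated rectal adenocarcinoma that can form domes, raised areas of the cell sheet over fluid. Cells near confluency received 1 mM MTA for 0, 6, 12 or 18 h and were then kept in medium with the vehicle (0.1% acetonitrile) up to 24 h, so that longer exposure goes with shorter MTA‐free time (18, 12 and 6 h for the 3 treated cultures). The 0 h culture was the control for every ratio, and the sources used here do not state outright whether it was also kept to 24 h. Total RNA of each culture was hybridised to 1 Affymetrix U133 Plus 2.0 array, giving 4 arrays with no replicates. No test could be made, and the small number of arrays bounds the precision. Bulk RNA cannot tell fewer cells of a type from less RNA per cell. All 12 epithelial markers searched, such as EPCAM and KRT20, passed the filter, and among markers of fibroblasts (6 read), leukocytes (4) and endothelium (3) 1 each did. At 0, 6, 12 and 18 h the fibroblast markers summed to 54.2, 186, 157 and 195, most of each treated sum from COL1A1, the leukocyte markers to 2751, 3034, 2396 and 2224, nearly all from LYZ, and the endothelial markers to at most 63.0. DCN, PTPRC and CDH5, defining markers of these types, were below the filter, and the part of other cells in the results was not tested.

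A ribosomal protein is made by the ribosome that it becomes part of. Its mRNA is long‐lived and abundant in growing cells, and most such mRNAs start with a cytosine and an unbroken run of pyrimidines, the 5′ terminal oligopyrimidine (TOP) tract. Through this tract and the protein LARP1, the kinase mTORC1 switches the translation of these mRNAs on and off together, often with little change in the amount of mRNA. The genes themselves are transcribed at high rates, and MYC is a known activator of many of them. Several ribosomal proteins also act away from the ribosome. RPL5 and RPL11, with the 5S rRNA, bind MDM2 when ribosome assembly is disturbed.

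The start of the transcript was read from RefSeq promoter sequences of build GRCh38.p14, which matched 52 of the 60 genes. The sequences are shown because the pyrimidine run is a feature that the choice of the genes did not use. Each shows 10 bases before and 20 bases from the annotated start, on the strand of the gene, with capitals for a run of a C followed by at least 4 C or T that begins at the first annotated base.
RPS6 (chr9:19380217-19380246, minus strand): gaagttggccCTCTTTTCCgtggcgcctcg
RPL39 (chrX:119791611-119791640, minus strand): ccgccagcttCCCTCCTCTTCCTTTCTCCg
RPS18 (chr6:33272065-33272094, plus strand): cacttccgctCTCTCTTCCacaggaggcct
RPL36 (chr19:5690285-5690314, plus strand): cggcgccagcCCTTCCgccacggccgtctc
RPS4X (chrX:72277229-72277258, minus strand): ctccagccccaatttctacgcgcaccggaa
RPS6, the protein phosphorylated by S6 kinase, began with 9 pyrimidines, and RPL39, at the exit of the peptide tunnel, had the longest run of the 52, 19 bases. RPS18 and RPL36 stood at opposite ends of the standard genes in the array ratios given further on, and both had a run. RPS4X had none within 10 bases of its annotated start.

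Searched on the sense strand, a run that began at the first annotated base was present in 34 of the 52 genes (65.4%), against 4.04% of all 27305 promoters in the table and 5.11% of the 8635 promoters of kept genes that are not ribosomal protein genes. With a start allowed anywhere within 10 bases, 44 of the 52 genes (84.6%) held a run, against 33.3% of all promoters. The standard genes and the like genes were unlike in this. Of 46 standard genes 33 had the run at the first base, and of 6 like genes only RPL22L1 had it. Several like genes are shown beside the gene they resemble, with the same capitals.
RPL22 (chr1:6199576-6199605, minus strand): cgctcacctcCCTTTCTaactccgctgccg
RPL22L1 (chr3:170870176-170870205, minus strand): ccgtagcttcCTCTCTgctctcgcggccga
RPS27 (chr1:153990752-153990781, plus strand): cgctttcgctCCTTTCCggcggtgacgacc
RPS27L (chr15:63157458-63157487, minus strand): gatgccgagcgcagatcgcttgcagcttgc
RPL7L1 (chr6:42879606-42879635, plus strand): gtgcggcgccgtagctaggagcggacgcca
RPL26L1 (chr5:172958719-172958748, plus strand): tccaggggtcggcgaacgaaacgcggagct
RPL36AL (chr14:49620607-49620636, minus strand): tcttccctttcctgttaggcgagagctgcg
RPL22L1 shared with RPL22 a run at the first base, of 6 and 7 pyrimidines. RPS27L, RPL7L1 and RPL26L1 had no run within 10 bases, and RPL36AL had pyrimidines around the start that did not make a run at the first base. Annotated starts can differ from the start used in these cells, so an absent run says only that these letters were not at that position.

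With the deposited scaling, signals of the ribosomal protein genes were lower at each treated time than at 0 h on the median, and the median of all genes was higher than at 0 h after 6 h and lower after 12 and 18 h. After 6, 12 and 18 h the median log2 ratio of the 58 genes to the control was −0.09, −0.21 and −0.35, where a ratio of −1 means a signal at 50% of that at 0 h. The same medians of all 10505 kept genes were 0.11, −0.28 and −0.47. The ribosomal protein genes were therefore 0.20 below all genes at 6 h (a shift of −0.20) and above them by 0.07 at 12 h and 0.12 at 18 h. On the linear scale the median of the 58 genes at 18 h was 78.5% of the 0 h signal, and that of all kept genes 72.3%.

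The sign of the plain ratios rests on how the arrays were scaled, since scaling by 1 factor moves every gene of an array by the same amount on the log2 scale. The median of the 58 genes at 18 h was −0.35 as deposited, −0.30 with scaling to the hybridization controls, −0.09 with scaling to the poly‐A controls, −0.01 with quantile normalization, 0.10 with median centring and 0.17 after division by the trimmed mean. The median of all kept genes was −0.47 as deposited, −0.42, −0.21, 0.01, −0.02 and 0.05 under the same settings. The shift of the ribosomal protein genes from all genes was the same under every setting that multiplies an array by 1 factor, and with quantile normalization it took values of −0.03, −0.05 and −0.02 for the 3 times, so that its direction flipped at 12 and 18 h. A pseudocount of 50 brought the shift to 0.011 at 12 h and 0.024 at 18 h, and without the filter on dim probe sets it was −0.0037 and −0.021, so neither its size nor its direction at these times was stable. The ratios that follow are as deposited and are best read against the median of all genes.

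No ribosomal protein gene passed a log2 ratio of 1.5 in either direction at any time. Among all kept genes, 0.019% were below −1.5 at 6 h, 0.942% at 12 h and 3.19% at 18 h, and 1.43%, 1.18% and 1.22% were above 1.5. None of the 58 genes passed −1 or 1 either, although 0.476%, 6.29% and 15.8% of all kept genes were below −1 at the 3 times and 4.68%, 3.28% and 3.15% were above 1. A ratio below −0.5 was reached by 0, 6 and 13 of the 58 genes at 6, 12 and 18 h, against 5.41%, 31.4% and 47.5% of all kept genes, and no ribosomal protein gene was above 0.5 (18.1%, 9.65% and 8.14% of all kept genes). The ribosomal protein genes thus filled a narrow band of small ratios and were missing from both tails. Of 322 other genes with a 0 h signal of at least 4000, 0 were above 1 at any of these times. Below −1 were 0, 8 and 35 of them at 6, 12 and 18 h. Absence from the upper tail was thus shared with other bright genes. At 18 h, 33 of the 251 other genes from 4000 to 8000 were below −1, and 2 of the 48 from 8000 to 12000. From 12000 to 16000 and at 16000 or more, 0 of 18 and 0 of 5 were. In these ranges lay 4, 11, 21 and 15 ribosomal protein genes. Near absence from the lower tail was thus also shared with other genes at 8000 or more.

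Plain signs were even more uniform, and depend on the scaling most. As deposited, the ratio was below 0 in 49 of the 58 genes at 6 h, in all 58 at 12 h and in all 58 at 18 h, against 37.7%, 71.6% and 78.3% of all kept genes. With median centring, 43 of the 58 genes were above 0 at 18 h. Against the median of all genes, 45 of the 58 were above it at 18 h, where 50% of all kept genes lie, while 25 of the 58 were above it with quantile normalization and 35 with a pseudocount of 50. As deposited, signals that were lower at each later time were found in 39 of the 58 genes and in 27.5% of all kept genes.

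**Figure D1:**
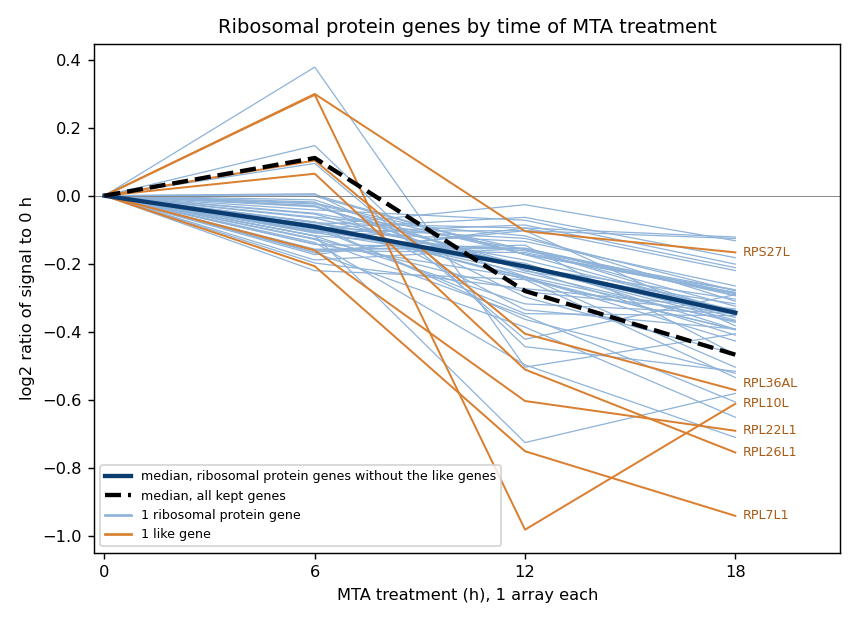
Log2 ratio of the signal to 0 h (vertical axis) against hours of MTA treatment (horizontal axis, 1 array per time), with 1 thin line for each of 52 standard ribosomal protein genes (blue) and 6 like genes (orange), and thick lines for the medians of the standard genes and of all 10505 kept genes. As deposited, 50 of the 52 standard genes lie below the dashed line of all genes at 6 h and 44 lie above it at 18 h (under quantile normalization the 18 h medians of the 58 genes and of all genes are −0.01 and 0.01), while 5 of 6 like genes end below it.

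As deposited, the median step from 6 to 12 h was −0.15 in the 58 genes and −0.39 in all kept genes, and from 12 to 18 h it was −0.13 and −0.20. The size and sign of these steps rest on the scaling, and with median centring the step from 6 to 12 h was 0.25 in the 58 genes and 0.02 in all kept genes. Relative to all genes the steps of the 58 genes were 0.24 and 0.06 under every scaling by 1 factor, and −0.03 and 0.02 with quantile normalization. The part of the summed signal of all kept genes that came from the 58 genes is not changed by scaling an array by 1 factor, and over the times 0, 6, 12 and 18 h it came to 8.44%, 7.69%, 9.04% and 9.47%. With quantile normalization the shares were 8.77%, 8.59%, 8.56% and 8.66%, so the low value at 6 h and the high value at 18 h were not seen there. It is a share of fluorescence and not of mRNA, since probe sets differ in how strongly they bind.

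Most ribosomal protein probe sets were close to the top of the range of the arrays, and the ratios of all genes were smaller there. At 0 h, 51 of the 58 genes had a signal of at least 4000, and the median over the 58 was 12967. In the range of 12000 or more, the median log2 ratio at 18 h was −0.33 for 36 ribosomal protein genes (SD 0.10) and −0.30 for 23 other genes (SD 0.16). At 6 h the same medians were −0.10 and −0.09, and at 12 h −0.18 and −0.17. In this range the other genes thus had ratios of the same size at all 3 times. They include FAU, which encodes a ribosomal protein, and EEF1A1, PABPC1 and TPT1 of the TOP genes given further on.

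Between 8000 and 12000, the median at 18 h was −0.41 for 11 ribosomal protein genes and −0.37 for 48 other genes. In that range the medians at 6 h were −0.09 and 0.02, on opposite sides of 0, and at 12 h −0.32 and −0.24. Between 4000 and 8000 the median at 18 h was −0.54 for 4 ribosomal protein genes and −0.60 for 251 other genes. Over all signals of at least 4000 the medians were −0.34 for 51 ribosomal protein genes and −0.56 for 322 other genes, most of which lie at the lower end of that range. Other genes with a 0 h signal from 250 to 1000 had −0.60, from 1000 to 4000 −0.68, and below 250 −0.22. Of the other genes from 1000 to 4000, 24.4% were below −1, and of those from 12000 to 16000 none of 18 was. Over the 51 bright ribosomal protein genes the Spearman correlation of mean log2 signal with the ratio at 18 h was 0.43, and over the 322 other genes of that range it was 0.60, both across genes that share the 4 arrays. The part of signal saturation in the small ratios was not tested.

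**Figure D2:**
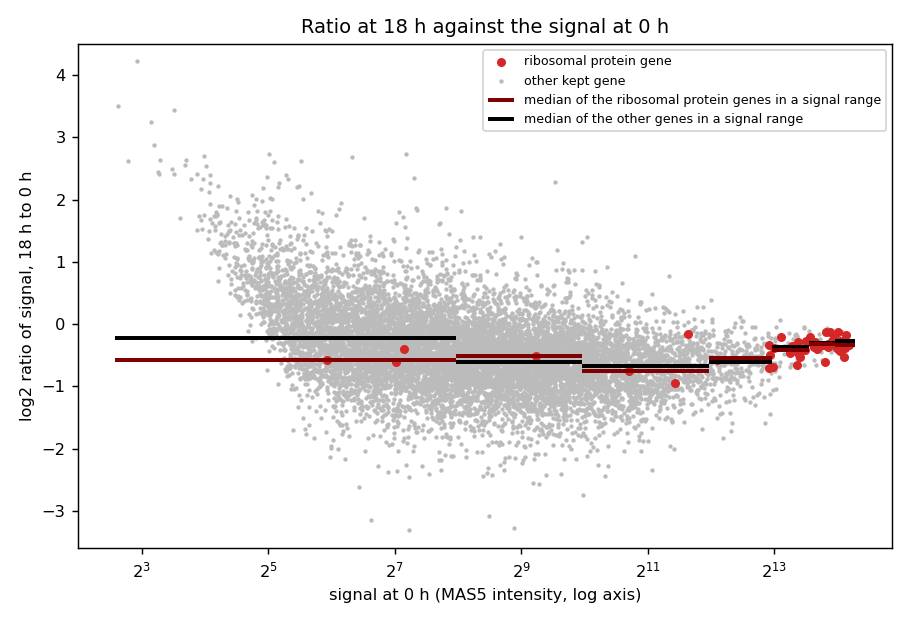
Log2 ratio of the signal at 18 h to 0 h (vertical axis) against the 0 h signal (horizontal axis, log scale) for 58 ribosomal protein genes (red) and the other kept genes (grey), with bars at the median of each group within a range of signal. At 12000 or more the ribosomal protein genes lie at a median of −0.33 and the other genes at −0.30.

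The subunits were alike. The 20 standard 40S genes had median log2 ratios of −0.11, −0.20 and −0.35 after 6, 12 and 18 h. That of the 32 standard 60S genes was −0.08, −0.21 and −0.34. The SD across genes at 18 h was 0.13 in the 40S group and 0.12 in the 60S group, and their ranges overlapped over nearly the whole width.

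In the small subunit, RPS18, which lies in the head near the P site, had the highest ratio at 18 h of all ribosomal protein genes. For 0, 6, 12 and 18 h its signals were 14422, 12791, 13505 and 13257, which gives −0.12 at the last time or 91.9% of the control. The lowest of its signals was at 6 h and not at 18 h. RPS4X, the X‐linked copy of the RPS4 pair, had 16573, 15596, 16271 and 15121, a ratio of −0.13, and its next brightest probe set gave −0.15. Both of its probe sets carry the suffix for probes that match other transcripts too.

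RPS10, in the beak of the 40S subunit, was among the 3 brightest of the 58 genes. Its signal was 17964, 16806, 17189 and 15832 at 0, 6, 12 and 18 h, a ratio of −0.18 at 18 h, with −0.23 on its second probe set. RPS12, the other beak protein kept, gave 16523, 14974, 13975 and 12569, which is −0.39. RPS28, near the mRNA exit, had 8838, 8586, 8407 and 7687, a ratio of −0.20, but its second probe set, with a signal of 61.3 at 0 h, gave −0.98.

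RPS7 and RPS6 were the lowest of the small subunit on their brightest probe sets. RPS7, one of the proteins mutated in Diamond‐Blackfan anaemia, gave 14357, 13131, 11239 and 9428, a ratio of −0.61 and 65.7% of the control at 18 h. Its second bright probe set gave −0.31, so the probe sets of this gene disagree by 0.30. RPS6 gave 17726, 15213, 14940 and 12236, a ratio of −0.53, with −0.46 on its second probe set. At 18 h these readings of RPS6 lay on either side of the median of all genes.

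Of the proteins that line the mRNA channel and exit of the small subunit, RPS3, RPS9 and RPS14 were read. RPS9 gave 7801, 7644, 6618 and 5499, a ratio of −0.50. Its second bright probe set, with 5983 at 0 h, gave −0.30. At 6 and 12 h the second gave 0.23 and −0.63, against −0.03 and −0.24 on the brightest. RPS3, at the channel entry, had 11542, 11117, 9927 and 8687, a ratio of −0.41. RPS14 had 15169, 13604, 13621 and 11955, a ratio of −0.34. The order of the 3 is not resolved, since the difference between 2 bright probe sets of 1 gene had an SD of 0.15.

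In the large subunit, RPL36 had the lowest ratio of the standard genes. Its signals were 7768, 7061, 5503 and 4746, a ratio of −0.71 at 18 h, at 61.1% of the control. RPL3, the protein nearest the peptidyl transferase centre, followed with 10520, 9364, 8048 and 6697, a ratio of −0.65. Of its 4 probe sets shared with small nucleolar RNAs, the brightest, with 13397 at 0 h, gave −0.37 and the others from −0.75 to −0.62. RPL41, the shortest ribosomal protein, was at the other end with 15195, 13537, 14150 and 13926, a ratio of −0.13. As in RPS18, the lowest of its 4 signals was at 6 h.

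RPL7 and RPL35A were the brightest probe sets of the large subunit at 0 h. RPL7 gave 18539, 17712, 16092 and 14669, a ratio of −0.34, and RPL35A gave 18086, 15767, 14964 and 14361, a ratio of −0.33. Both stood at the median of the 58 genes.

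RPL11, which with RPL5 and the 5S rRNA forms the particle that binds MDM2, had 9813, 9852, 7981 and 7107, a ratio of −0.47 at 18 h. RPL5 was read only by probe sets that also carry the symbol of a small nucleolar RNA in its introns, and the brightest of them gave −0.47 as well. MDM2 itself, the ubiquitin ligase of p53, had 425, 527, 359 and 375, a ratio of 0.31 at 6 h and −0.18 at 18 h. RPL11 lay at the median of all genes.

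Of the acidic P stalk proteins, which recruit the elongation factors, RPLP1 had 15974, 15290, 14719 and 12882, a ratio of −0.31. RPLP2 was read by a dim probe set with 143, 185, 101 and 108, a ratio of 0.38 at 6 h and −0.41 at 18 h. The ratio at 6 h was the highest of the 58 genes. A bright probe set shared with the small nucleolar RNA SNORA52 gave 14798 at 0 h and ratios of −0.08 at 6 h and −0.27 at 18 h for RPLP2, so the dim probe set alone carried the high value.

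Along the exit tunnel of the 60S subunit, the 5 genes kept were RPL19, RPL23A, RPL31, RPL35 and RPL39, with a median of −0.34 at 18 h. Their ratios ran from −0.39 in RPL23A to −0.28 in RPL39, although a brighter probe set of RPL23A shared with SNORD42A gave −0.25. RPL39, the gene with the longest pyrimidine run, had 16794, 16513, 14906 and 13853. The median absolute difference between 2 bright probe sets of 1 gene was 0.12, so these 5 genes are not separated from each other.

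**Figure D3:**
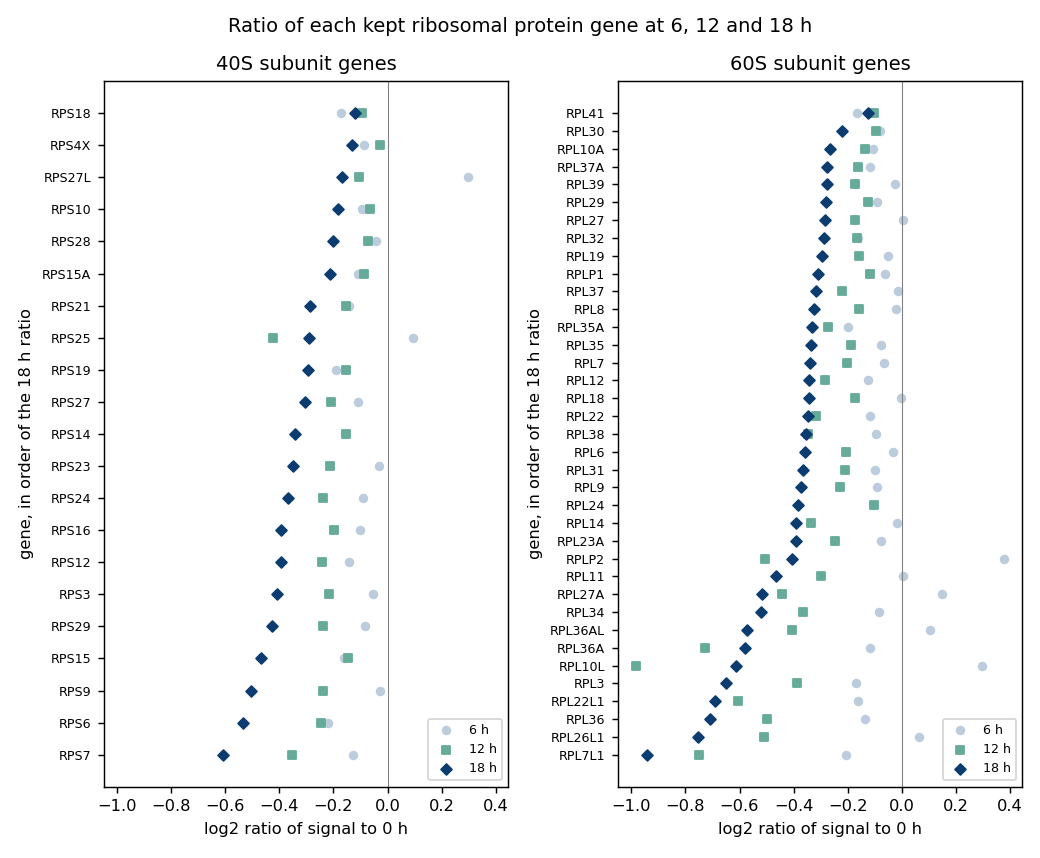
Log2 ratio of the signal to 0 h (horizontal axis) at 6 h (circles), 12 h (squares) and 18 h (diamonds) for each of the 58 kept genes (vertical axis), with the 21 genes of the 40S subunit on the left and the 37 genes of the 60S subunit on the right, in order of the 18 h ratio. As deposited, the 18 h ratios run from −0.12 in RPS18 to −0.94 in RPL7L1, all below 0, and under median centring 43 of the 58 lie above 0.

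The like genes spread more widely than the standard genes, with an SD across genes at 18 h of 0.26 over 6 genes against 0.12 over 52. RPL7L1, whose protein acts in the nucleolus in ribosome assembly, had the lowest ratio of all 58 genes, with signals of 2754, 2385, 1636 and 1434 and a ratio of −0.94 at 18 h. A dimmer probe set of RPL7L1 that also carries the symbol WAC-AS1 gave −0.61. RPL26L1, a near copy of RPL26, had 1666, 1742, 1169 and 987, a ratio of −0.76. RPL22L1, which can replace RPL22 in the ribosome, had 8125, 7270, 5347 and 5032, a ratio of −0.69. These 3 genes were among the 6 lowest ribosomal protein genes.

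RPL36AL had 4399, 4726, 3319 and 2960, a ratio of −0.57. RPL10L, known for its expression in testis, was dim, with 131, 160, 66.1 and 85.5, a ratio of −0.61. RPS27L, a target of p53, had 3188, 3923, 2965 and 2840, a ratio of 0.30 at 6 h and −0.17 at 18 h, the highest of the like genes at 18 h. At 6 h the ratio was 0.30 in RPL10L too, 0.10 in RPL36AL and 0.06 in RPL26L1. The second probe set of RPS27L gave 0.31 at 6 h and −0.43 at 18 h, so its higher signal at 6 h was seen on both probe sets.

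RPL3L, a gene of heart and skeletal muscle, and RPL39L, known from testis, were below the filter. RPL3L had 0.68, 0.56, 3.98 and 0.99, and RPL39L had 2.57, 4.55, 0.62 and 6.97. These signals are near the bottom of the scale, and no ratio is given.

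As a group, the 6 like genes kept had a median of −0.65 at 18 h, against −0.34 for the 52 standard genes. The difference was −0.31 under every scaling by 1 factor and −0.17 with quantile normalization. Against the gene it resembles, RPL7L1 was 0.60 lower than RPL7 at 18 h (a difference of −0.60), and on the dimmer probe set of RPL7L1 the difference was −0.27. RPL22L1, at −0.69, differed from RPL22 by −0.34 on the brightest probe set of RPL22. The 18 h ratio of RPL22 was −0.35 there, and −0.47, −0.44, −0.76 and −0.53 on its other probe sets in order of signal. The size of the difference thus changed with the probe set, and its direction turned on the one with −0.76. RPL36AL differed from RPL36A by 0.22, 0.32 and 0.01 at 6, 12 and 18 h on the dim probe set of RPL36A, and by 0.15, −0.25 and −0.19 on its bright shared one. RPS27L was above RPS27 by 0.41 at 6 h and by 0.14 at 18 h, and on its second probe set the differences were 0.42 and −0.12, so the direction at 18 h turned with the probe set. The like genes were also dimmer, with a median 0 h signal of 2971 against 14240 for the standard genes, and other genes with signals from 1000 to 4000 had a median of −0.68, so brightness and being a like gene cannot be told apart here.

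Error could be judged only from probe sets of the same gene on the same arrays. In 15 genes both of the 2 brightest probe sets had a 0 h signal of at least 4000, and the SD of their difference in the 18 h ratio was 0.15, which is 0.11 per probe set. The SD across the 49 bright standard genes was 0.12. The spread among ribosomal protein genes was thus about that of 2 probe sets of 1 gene, and the order of most genes within the band is not resolved. Over the 15 pairs the ratios of the first and second probe sets had a Pearson correlation of 0.26 and a Spearman correlation of 0.29, as a description over genes that share the arrays.

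The probe sets disagreed by over 0.5 in 4 genes, each time where the second was dim. RPS29 had −0.43 on a probe set with a 0 h signal of 16813 and 0.83 on one with 35.4. RPS15A had −0.21 at 12129 and 0.34 at 69.6. RPS28 has been given above, and RPS21 had −0.29 at 17806 and −0.83 at 1738. In these 4 genes, picked for a large difference, the dimmer reading was farther from 0 than the bright one. This did not hold for all such pairs. Over the 11 genes with a first probe set of at least 4000 and a second below it, the median ratios at 18 h were −0.34 and −0.19. These are medians of signed values and do not measure the distance from 0. Among the rest of the 11, the dimmer reading was farther from 0 in RPL37A and RPL38. It was nearer in RPS23, RPL31, RPL37, RPS24 and RPL18.

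**Figure D4:**
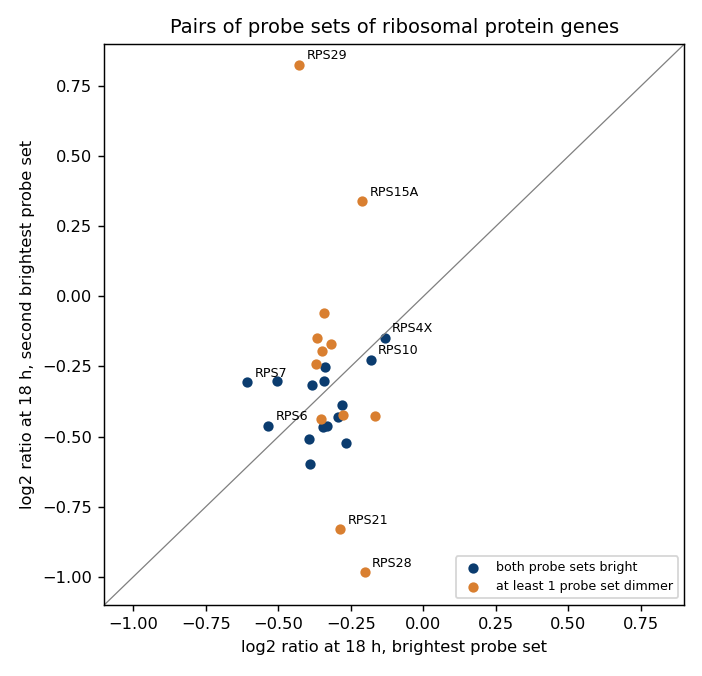
Log2 ratio at 18 h of the second brightest probe set (vertical axis) against the brightest (horizontal axis) for the 27 ribosomal protein genes with at least 2 kept probe sets, blue where both had a 0 h signal of at least 4000 and orange otherwise, with the line of equality. As deposited, the blue points lie between −0.13 and −0.61 on both axes, and the 4 genes that leave the line by over 0.5 are all orange.

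Some ribosomal protein genes sit on this array only in probe sets with several symbols, in most cases because the gene hosts small nucleolar RNAs in its introns. They were left out of the 58 genes and can be set beside them. There were 15 such genes with a kept probe set, among them RPL5, RPL10 and RPS26, with 0 h signals from 9054 to 17228 on the brightest. Their median ratios after 6, 12 and 18 h were −0.11, −0.24 and −0.38, and the 18 h ratios ran from −0.60 to −0.13. These lie in the band of the 52 standard genes, which ran from −0.71 to −0.12.

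The same probe sets bear on the dim standard genes. RPL36A was read in the 58 genes by a probe set with signals of 61.2, 56.4, 37.0 and 40.9 and a ratio of −0.58, while a probe set shared with a readthrough transcript of RPL36A and HNRNPH2 had the highest signal of the 0 h array, 20594, and a ratio of −0.39. With probe sets of several symbols allowed, the median of the then 73 ribosomal protein genes was −0.35 at 18 h.

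Genes that share the TOP tract or the work of ribosome assembly were set beside the ribosomal protein genes. FAU, which encodes RPS30 fused to a ubiquitin‐like protein, falls outside the naming rule. Its signal was 12911, 11695, 10752 and 8156, a ratio of −0.66 at 18 h. Of the 52 standard genes only RPL36 was lower. RACK1 was not analysed here.

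Of 18 TOP genes of translation, a list that again holds FAU, 13 were kept, with a median of −0.39 at 18 h, and none was below −1. Without FAU the median of the other 12 was −0.36. The share of such ratios among all kept genes was 15.8%. After FAU the lowest were EIF3F (−0.63), EIF4B (−0.63) and EIF3E (−0.50), all initiation factors. The median at 18 h was above that of all genes by 0.08 as deposited and by 0.07 with quantile normalization, and its shift was −0.07 without the filter. In the promoter table, 9 of 11 of these genes had the pyrimidine run at the first base.

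Factors that build the ribosome were much lower than its proteins. Of 76 ribosome biogenesis factors, 68 were kept, with a median of −1.26 at 18 h. Of the 68, 55 were below −1, against 15.8% of all kept genes. All 68 lay below the median of the standard ribosomal protein genes, and 65 of them lay below the lowest of those genes. The list was chosen with earlier results of these data known, so these counts only describe its genes. BYSL, needed for the last steps of the 40S subunit, had 361, 243, 132.8 and 42.6, a ratio of −3.09. PNO1 (−2.27), UTP20 (−2.14) and RRP12 (−2.11), all of the small subunit pathway, came next.

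The difference between the medians of biogenesis factors and standard ribosomal protein genes was −0.91 as deposited and −0.70 with quantile normalization. A difference in the same direction was seen at 0 h signals from 4000 to 8000, over few genes and without a close match of signal. The 4 biogenesis factors of that range, with signals from 4228 to 5282, had a median of −1.21. The 4 ribosomal protein genes of that range had −0.54. Of these, RPL18, RPL36 and RPS9 had signals from 7767 to 7801, and the like gene RPL36AL had 4399. Of the 65 biogenesis factors with a promoter entry, 6 (9.23%) had a pyrimidine run at the first base.

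Mitochondrial ribosomal proteins, which build the separate ribosome of the mitochondrion, lay between. All 75 genes were kept, with a median of −0.98 at 18 h. Of the 75, 35 were below −1, against 15.8% of all kept genes. The lowest were MRPS26 (−1.81), MRPS12 (−1.51), MRPL46 (−1.49) and MRPS17 (−1.48). Their median was 0.64 lower than that of the standard cytosolic genes (a difference of −0.64) as deposited, and the difference was −0.37 with quantile normalization. The median 0 h signal of the 75 was 1117, against 14240 for the standard cytosolic genes. Other genes with a signal from 1000 to 4000 had a median of −0.68 at 18 h. From 4000 to 8000, 2 mitochondrial genes had a median of −1.09 and 4 cytosolic ones −0.54. The part of brightness in the difference was not tested.

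Chaperones that carry single ribosomal proteins to the nucleus or load them onto the ribosome were also lower. All 12 were kept, with a median of −0.85 at 18 h. Of the 12, 5 were below −1, against 15.8% of all kept genes. PDCD2L, a paralog of PDCD2, had 471, 280, 180 and 148, a ratio of −1.67. PDCD2, which accompanies the protein RPS2, had −1.37, BCCIP had −1.36 and GRWD1, a chaperone of RPL3, had −1.34. The median was 0.38 below that of all genes (a shift of −0.38), and the shift was −0.29 with quantile normalization. The median 0 h signal of the 12 was 499, and other genes with a signal from 250 to 1000 had a median of −0.60 at 18 h.

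In the mTORC1 axis, 13 of 14 genes were kept, with a median of −0.66 at 18 h. MTOR, the kinase itself, had low signals of 69.9, 63.0, 39.5 and 34.2, a ratio of −1.03, and was the 1 gene of 13 below −1, where the share among all kept genes was 15.8%. RPS6KB2, an S6 kinase, had −0.90, EIF4E, the cap‐binding protein, −0.84 and MLST8, a subunit of mTORC1, −0.82. The 2 genes above 0, named after their values were seen, were EIF4EBP2, an inhibitor of EIF4E, with ratios of 0.70, 0.60 and 0.47 at 6, 12 and 18 h, and TSC1, which restrains mTORC1, with 0.12 at 18 h. The shift of the list from all genes at 18 h was −0.19 as deposited and −0.11 with quantile normalization. Its median 0 h signal was 310, and other genes with a signal from 250 to 1000 had a median of −0.60 at 18 h, close to that of the list. These are mRNA levels, and the activity of the kinase was not measured.

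MYC had 7421, 4211, 3032 and 2459, ratios of −0.82, −1.29 and −1.59 at 6, 12 and 18 h. In the range of 0 h signal that MYC shared with 4 of the ribosomal protein genes, from 4000 to 8000, the median of those 4 was −0.54 at 18 h.

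**Figure D5:**
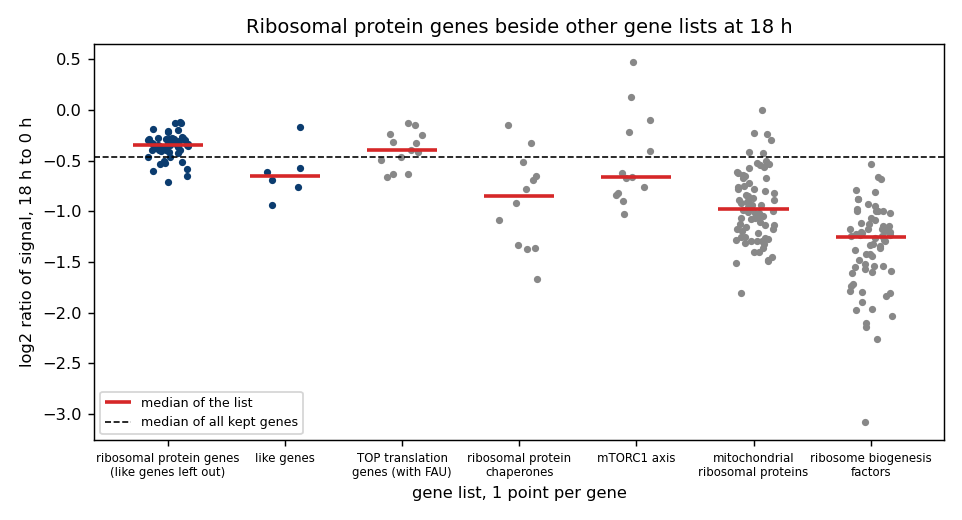
Log2 ratio of the signal at 18 h to 0 h (vertical axis), 1 point per gene, for the standard ribosomal protein genes, the like genes and 5 other gene lists (horizontal axis), with red bars for list medians and a dashed line for all kept genes. As deposited, the standard genes centre on −0.34 and the ribosome biogenesis factors on −1.26, and the order of these 2 medians is the same under quantile normalization.

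Standard genes with and without a pyrimidine run at the first annotated base had like medians. The 33 with a run at the first base had a median of −0.35 at 18 h (range −0.71 to −0.12), and the 13 without it −0.36 (range −0.65 to −0.13). The difference between these medians was far smaller than the spread between probe sets of a gene. Of the 46 standard genes, 42 held a run that started within 10 bases, so most of the 13 had a run close by. The comparison therefore does not separate genes with the TOP tract from genes without it.

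Ribosomal protein genes have many processed pseudogenes, and probe sets whose suffix marks matches to other transcripts may collect signal from them. Of the 51 bright ribosomal protein genes, 14 were read by such a probe set, with a median ratio of −0.35 at 18 h. The 11 read by a probe set unique to the gene had −0.38, and the 26 read by the kind that matches several transcripts had −0.30. As controls of RNA quality, the ratio of 3′ to 5′ signal at 0, 6, 12 and 18 h was 1.64, 1.44, 1.53 and 1.63 for GAPDH and 5.76, 4.76, 5.86 and 6.45 for ACTB. Both were lowest at 6 h, and their part in the ratios was not tested.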

How the data were processed

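Gene expression was measured in RCM‐1 cells on 4 Affymetrix U133 Plus 2.0 arrays, 1 per duration of MTA treatment. The deposited values are linear MAS5 intensities for each probe set, which the authors made from biotin‐labelled cRNA with Affymetrix Expression Console. Its version and the scaling target were not given in the sources used here, and the medians of the deposited signals differ between arrays (16.4 to 20.8). Arrays have no read depth, so their number limits the precision.

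After 62 control probe sets had been left out, probe sets were ranked by mean log2 signal and the top ones were retained, as many as the study's number of detected probes. Genes were named through the platform annotation, with no symbol updated by RefSeq, where 41091 of 54613 probe sets had 1 symbol, 1801 several and 11721 none. The brightest retained probe set with 1 symbol stood for its gene. Ribosomal protein genes without such an entry, for example RPLP0 and RPS27A, were not analysed here. Log2 ratios to 0 h were taken without a pseudocount. Thresholds were 1.5, 1 and 0.5, and no test was made. The calculation was tested on simulated data.

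The members and gene lists were chosen with earlier results of these data known. The genes named were the 6 lowest and 6 highest members at 18 h, the 3 brightest and 3 dimmest at 0 h, the like genes, the P stalk, the 5S particle, RPS6, RPS27A, members whose probe sets differ by over 0.5, FAU, RACK1, up to 4 of each list farthest from 0, and MYC and MDM2. One further gene that the rule covers is not reported here. RPL5, RPL10, RPL36A and RPS26 are named on other probe sets as examples chosen after their values were seen, and so are the marker genes.

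Alternatives were 5 other scalings, no filter, a stricter filter of 10000 probe sets, a pseudocount of 50, the mean over probe sets, the second brightest probe set, probe sets with several symbols, the like genes left out, and thresholds of 1 and 0.5. Bright genes only, bright genes as the reference, a pyrimidine run at exactly the first base, steps and shares under other scalings, like genes on other probe sets and the TOP list without FAU were chosen after seeing the data. Promoters came from RefSeq, build GRCh38.p14, and the letters of the proteins were not used here. Python 3.11.15, NumPy 2.4.6, pandas 2.3.3 and matplotlib 3.10.9 were used.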

Additional observations from a re-analysis of the deposited data

Results flagged for a closer look

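Readings outside the 58 genes' brightest probe sets were also searched for signals above the 0 h control at 18 h, as deposited. Among the other kept probe sets of ribosomal protein genes with 1 symbol, RPS29 had a log2 ratio of 0.83 and RPS15A of 0.34 on dim probe sets. Among kept probe sets with several symbols, RPL17 had 0.47 on a dim probe set with a 0 h signal of 51.8, RPL13A had 0.070 on one with 3537, and RPS3A had 0.047 on one with 70.8. Brighter probe sets of the same genes had ratios below 0, as in RPL13A, whose brightest gave −0.36. Why these readings differ was not tested.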

How the results depend on the processing

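A value is called moved here where it changed by more than the SD of the difference between bright probe sets of a gene (0.10, 0.15 and 0.15 at 6, 12 and 18 h) or changed sign, and a count where it changed by over 1.5 times. The median ratio of the ribosomal protein genes moved with scaling. At 18 h it was 0.10 with median centring, −0.012 with quantile normalization, 0.17 after division by the trimmed mean and −0.094 with poly‐A scaling. At 12 h it was 0.063 with median centring, −0.034 with quantile normalization, 0.11 after division by the trimmed mean and 0.056 with hybridization control scaling. At 6 h it was −0.22 with median centring and −0.29 with poly‐A scaling. The shift from all genes with quantile normalization came to −0.025, −0.051 and −0.022 for 6, 12 and 18 h. Without the filter it was −0.0037 at 12 h and −0.021 at 18 h, with more dim genes in the reference. At 6 h it was −0.10 with the second brightest probe set and −0.10 against other bright genes. The number of genes above the median of all genes at 18 h, 45 of 58, was 25 with quantile normalization, 23 of 60 without the filter and 22 of 27 with the second brightest probe set, where only 27 genes have one. At a threshold of 0.5, 6 genes at 12 h and 13 at 18 h were below it, and without the filter 1 gene was below −1.5 and 1 above 1.5 at 12 h. By this measure the other alternatives moved none of these values, but some changed a small shift by over 1.5 times. A pseudocount of 50 gave 0.011 at 12 h and 0.024 at 18 h, with 35 of 58 genes above the median of all genes, and the stricter filter gave 0.12 and 0.21. No paired analysis was possible because each time has 1 array, and for the same reason no replicate could be left out. Dim probe sets limit RPL36A, RPLP2, RPL10L and RPL27A, and signals near the top of the range limit most other ratios.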
